A study of Melospiza melodia with 33 samples.

Results

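Interferon-induced effector genes were followed in whole blood of wild adult male song sparrows (Melospiza melodia). The set is a list of 10 genes chosen by name, with earlier results of these data known. The genes are IFI35, PARP9, PARP12, PARP14, DTX3L, RSAD2, IFIH1, DHX58, ZNFX1 and CD274. Of these, 8 have a row among the 21141 gene rows of the counts and were followed in all 33 libraries; PARP12 and PARP14 are not analysed here. The study asked whether blood gene expression differs after a simulated territorial intrusion with songs from another place. Free-living males at Linesville, Pennsylvania, were played local song (stimuli 2, 3 and 6, recorded at the same place) or foreign song (stimuli 1, 4 and 5, recorded at Millbrook, New York). The 33 libraries come from 25 birds: 8 birds heard foreign song and 7 local song in a first trial, 4 heard foreign and 4 local song in a second trial, and 10 baseline birds had no trial. The 8 birds of the second trials are among the 15 of the first and then heard the other song. Their first song was local in 4 birds and foreign in 4. Stimulus 3 always came before stimulus 4 in the paired birds that heard both, and stimulus 5 before stimulus 6, so there the trial, the song and the recording cannot be told apart. A second trial is also a second capture of a wild bird later on, and these cannot be told apart either.

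Interferons are cytokines released when a cell senses viral nucleic acid; they act through JAK kinases and STAT factors to switch on a broad set of genes that slow viral growth. In mammals IFIH1 (MDA5) senses long double-stranded RNA in the cytosol, DHX58 (LGP2) modulates that sensing, and ZNFX1 is a helicase with a role in early RNA sensing. PARP9 and the ubiquitin ligase DTX3L form a complex that strengthens interferon signalling, IFI35 is an interferon-induced leucine zipper protein, and RSAD2 (viperin) makes a nucleotide analogue that stops viral RNA synthesis. CD274 (PD-L1) is the ligand that restrains T cells through PD-1 and is induced by interferon gamma. Bird red cells keep their nuclei and make RNA, so whole blood of a bird holds red cell, white cell and thrombocyte transcripts together. In such bulk samples, fewer cells of a type and less RNA per cell cannot be told apart.

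Total counts were 64.7 to 103.7 M per library, with 12766 to 15472 genes detected. Levels are given as CPM, counts per M counts after scaling by library (TMM, trimmed mean of M-values); they are not divided by transcript length, so they compare libraries for 1 gene and not one gene with another. All 8 genes passed the filter on low counts in each of the 5 comparisons. The second-trial library of bird 8439 stood apart, with a scaling factor of 1.85 against 0.708 to 1.38 in the other 32 libraries. Deviations from group means in the 2 libraries of bird 8439 correlated at -0.15 across genes, against 0.28 to 0.54 in the other 7 pairs. Fitted values of the 8 genes for second against first trials are therefore given with and without this bird. In the other comparisons some fitted values are given with it only. Marker and pathway genes are given with it only. Each list of blood cell markers (monocyte, heterophil, T cell, B cell, thrombocyte and erythroid) had 8 to 14 rows with counts, and no marker row was at 0 in every library.

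Levels of the interferon-induced genes varied widely over the 33 libraries, although some groups were narrow, such as ZNFX1 after foreign song in second trials at 331.1 to 414.0 CPM. RSAD2 ran from 21.1 to 1222 CPM over the 33 libraries, with a median of 203.6. PARP9 ran from 26.6 to 516.4 CPM, DTX3L from 27.5 to 671.9 CPM and IFIH1 from 14.3 to 197.6 CPM. IFI35 ran from 20.2 to 251.7 CPM, DHX58 from 9.47 to 89.0 CPM and ZNFX1 from 121.5 to 955.0 CPM. CD274 was sparse, from 0.615 to 18.1 CPM. By group mean, foreign song in the first trial was highest for 5 of the 8 genes (IFI35, PARP9, RSAD2, DHX58 and ZNFX1), baseline for 2 (DTX3L and IFIH1) and local song in the second trial for 1 (CD274). For CD274 baseline was lowest. None of the 32 gaps between neighbouring group means in these orders exceeded the larger SD of the 2 groups. Neighbours in a sorted order lie close by construction, and groups further apart in it were not compared this way. For CD274 the ends of the order were 11.7 ± 6.19 CPM (local song, second trial) and 3.43 ± 2.3 CPM (baseline, SD). Orders by median differ in part. The baseline median was above that of foreign song in first trials for PARP9 (233.1 against 228.2 CPM) and DHX58 (37.2 against 31.5 CPM). It was below it for IFI35, DTX3L, RSAD2, IFIH1, ZNFX1 and CD274. The RSAD2 mean after foreign song in first trials, 363.3 CPM, includes bird 8439 at 1222 CPM. The lowest 2 libraries by the mean standardised level of the 8 genes were first-trial birds 8437 (local song) and 8433 (foreign song), neither of which has a second library, and the highest was the first-trial library of bird 8427. Libraries 8437 and 8433 also had the lowest scaling factors, 0.708 and 0.783. Both enter the comparisons of first trials and the correlations over 33 libraries, and no alternative of those leaves them out.

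**Figure D1:**
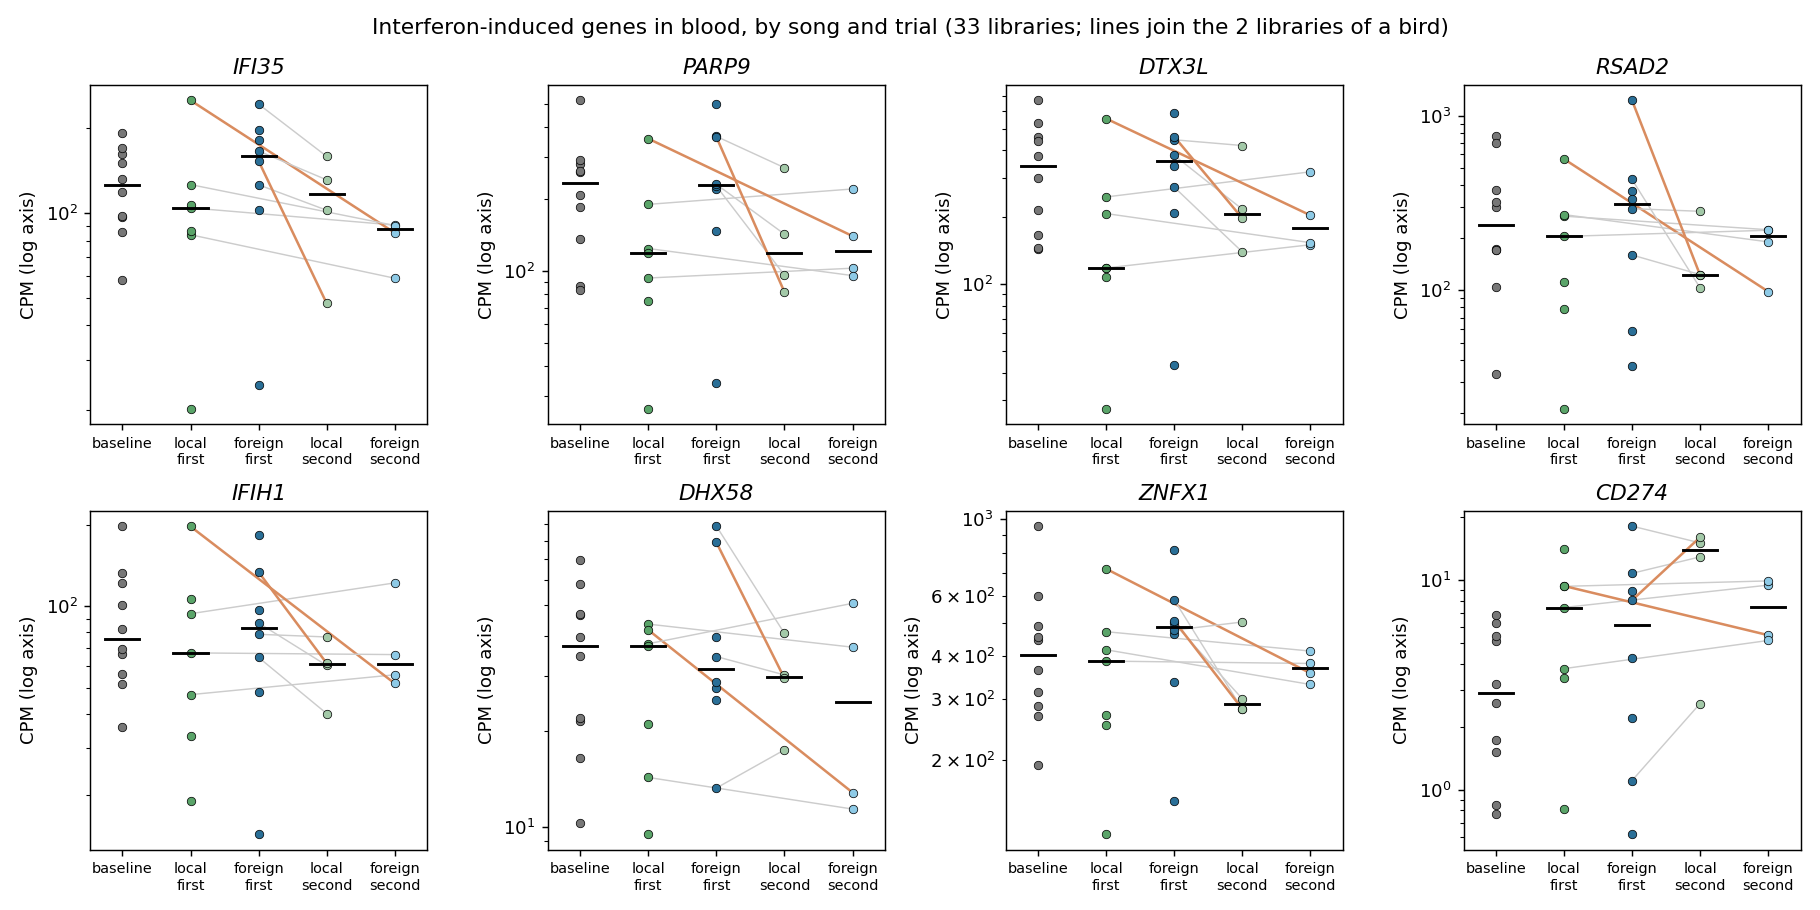
Level of each of the 8 interferon-induced genes in the 33 libraries, in CPM on a log axis, by group; each point is a library, black bars are group medians and lines join the 2 libraries of a bird (orange, birds 8427 and 8439). The groups overlap for every gene, and RSAD2 reaches from 21.1 to 1222 CPM.

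In the 8 birds sampled after both trials, 7 of the 8 genes had lower fitted levels in the second trial than in the first, with log2 fold changes of -1.08 to -0.43, and CD274 had a higher one. The fit held the bird as a block and song as a term. No gene passed an adjusted p of 0.05 in edgeR's quasi-likelihood test, neither among the 8 nor among all 11629 genes tested (percent called 0), and the adjusted p was 0.63 for each of the 8. At an unadjusted p under 0.05, 5 of the 8 genes (IFI35, PARP9, ZNFX1, RSAD2 and DTX3L) were lower, against 1.94% of all genes tested. The 7 negative values stand against 45.1% negative among all genes. Since the genes were chosen with earlier results of these data known, these contrasts are a description and no independent test. The median log2 fold change was -0.51 over the 8 genes and 0.04 over all genes tested. With DESeq2 in place of edgeR 6 of the 8 were lower at an unadjusted p under 0.05. By DESeq2 0 of the 8 passed the adjusted threshold, and 6 other genes did. The 1.94% is a share by edgeR, and no such share is given for DESeq2.

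IFI35 was lower in the second trial in 8 of 8 birds, a pattern shown by 0.808% of all genes. Its level in first trials was 83.9 to 251.7 CPM with a median of 139.9, and in second trials 47.9 to 159.2 CPM with a median of 90.6. The ranges overlap, but the second library was the lower one in every bird. The smallest drops were those of bird 8426, from 104.5 to 90.8 CPM, and bird 8429, from 126.2 to 102.5 CPM. The largest were those of bird 8439, from 153.3 to 47.9 CPM, and bird 8427, from 251.7 to 85.2 CPM. The fitted log2 fold change was -0.70 ± 0.19 (SE), with an unadjusted p of 0.00352.

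PARP9 and DTX3L, the partners of one ADP-ribosylation and ubiquitin complex, were each lower in 6 of 8 birds. Birds 8422 and 8426 were the exceptions for both genes. PARP9 was at 93.4 to 365.1 CPM in first trials (median 228.2) and 81.6 to 270.1 CPM in second trials (median 121.3). Bird 8439 had the largest drop, from 363.0 to 81.6 CPM, while bird 8426 went from 189.8 to 220.1 CPM. DTX3L was at 118.2 to 556.1 CPM in first trials (median 326.6) and 139.6 to 420.6 CPM in second trials (median 201.0). Bird 8427 had the largest drop of DTX3L, from 556.1 to 204.1 CPM. The log2 fold changes were -0.72 ± 0.22 for PARP9 and -0.52 ± 0.21 for DTX3L, with unadjusted p of 0.00659 and 0.0305. The pair are next to each other in the RefSeq gene table, and since no source used here gives the strand setting of the counting, reads from any overlap cannot be assigned.

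RSAD2 had the most negative fitted value of the 8, and 3 birds carried most of it. Bird 8439 went from 1222 to 122.4 CPM, 9.98-fold lower. Bird 8427 went from 564.5 to 98.6 CPM and bird 8428 from 431.3 to 103.4 CPM. In the other 5 birds the first-trial levels were 159.5 to 293.4 CPM and differences were small: bird 8426 went from 271.5 to 189.5 CPM, bird 8436 from 159.5 to 123.2 CPM and bird 8422 from 266.0 to 222.4 CPM. Bird 8429 was nearly level, 293.4 and 283.5 CPM, and bird 8430 was slightly higher, 203.6 and 220.9 CPM. RSAD2 was thus lower in 7 of 8 birds, with means of 422.8 ± 347.5 CPM in first and 168.9 ± 66.6 CPM in second trials (SD, n = 8, scaled within the fit) and second-trial levels that all lay within 98.6 to 283.5 CPM. The log2 fold change was -1.08 ± 0.38, with an unadjusted p of 0.0147.

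The RNA sensors and the helicase ZNFX1 had smaller values. ZNFX1 was at 387.1 to 717.5 CPM in first trials (median 487.3) and 280.7 to 502.8 CPM in second trials (median 344.1), lower in 7 of 8 birds. Of all genes, 4.6% were lower in at least 7 birds. The exception for ZNFX1 was bird 8429, at 476.2 and 502.8 CPM, and bird 8422 was nearly level, at 387.1 and 381.1 CPM. The log2 fold change of ZNFX1 was -0.50 ± 0.17, with an unadjusted p of 0.0100 by edgeR. IFIH1 was at 47.1 to 197.0 CPM in first trials (median 82.7) and 40.1 to 121.9 CPM in second trials (median 61.0), with bird 8427 alone going from 197.0 to 51.8 CPM. DHX58 was at 13.3 to 89.0 CPM in first trials (median 39.8) and 11.4 to 50.8 CPM in second trials (median 29.8). Both sensors were lower in 6 of 8 birds, but in different birds: IFIH1 was higher in birds 8422 and 8426, DHX58 in birds 8430 and 8436. Of the birds counted as lower for IFIH1, 8429 (78.7 and 76.9 CPM) and 8430 (67.2 and 66.2 CPM) were nearly level. The log2 fold changes of the sensors were -0.43 ± 0.23 for IFIH1 and -0.51 ± 0.25 for DHX58, with unadjusted p of 0.0886 and 0.0599 by edgeR.

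CD274 went the other way. Its level was 1.11 to 18.1 CPM in first trials (median 8.70) and 2.59 to 16.1 CPM in second trials (median 9.71), and it was higher in the second trial in 6 of 8 birds. Bird 8439, which had the largest drop of RSAD2, went from 8.04 to 16.1 CPM for CD274, and bird 8428 from 1.11 to 2.59 CPM. Bird 8427 was the clearest exception, at 9.40 and 5.48 CPM. The log2 fold change was 0.30 ± 0.20 with an unadjusted p of 0.171.

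**Figure D2:**
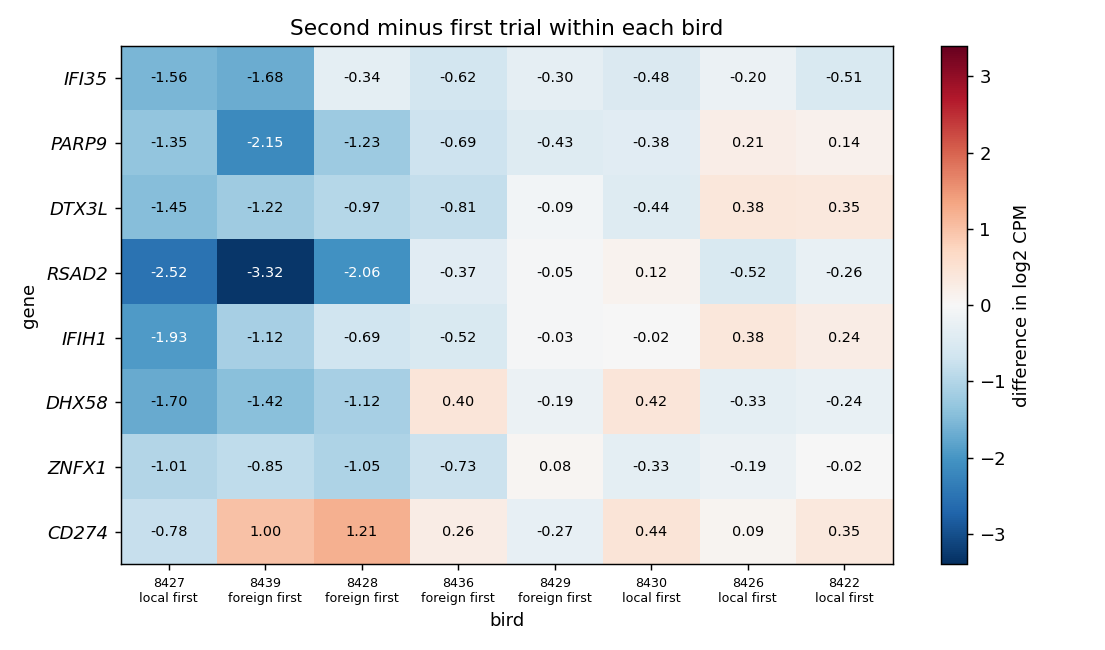
Second-trial minus first-trial level of each gene (rows) in each of the 8 paired birds (columns, with the song heard first), in log2 CPM; blue is lower and red higher in the second trial. The strongest blues are in birds 8427 and 8439, where RSAD2 differs by -2.52 and -3.32, and IFI35 is the row that is blue throughout.

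Single birds set much of the size of this difference. Averaged over the 8 genes, the second minus first difference was -1.54 log2 CPM in bird 8427, -1.35 in bird 8439, -0.78 in bird 8428 and -0.38 in bird 8436. In the other 4 birds it was -0.16 (bird 8429), -0.08 (bird 8430), -0.02 (bird 8426) and 0.01 (bird 8422). Birds 8427 and 8439 together held 66.9% of the summed difference and, with bird 8428, 85.0%. These averages and shares include CD274, which was lower in second trials in only 2 of 8 birds. Its difference was 1.00 in bird 8439, 1.21 in bird 8428, 0.35 in bird 8422 and -0.78 in bird 8427. Over the other 7 genes bird 8439 had a larger mean drop than bird 8427, and the mean of bird 8422 was slightly negative. The drops of bird 8439 rest in part on its scaling factors, 0.904 in the first and 1.85 in the second library. Its unscaled counts fell from 71502 to 15499 for RSAD2 and from 21233 to 10328 for PARP9. They were 7812 and 7787 for IFIH1 and 26978 and 25049 for DTX3L, and rose from 29676 to 35598 for ZNFX1. Each gene had its most negative difference in bird 8427 (4 genes), bird 8439 (3 genes) or bird 8428 (1 gene). Bird 8427 heard local song first and birds 8439 and 8428 heard foreign song first.

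With each bird left out in turn and all genes refitted, the sign of none of the 8 genes turned in any of the 8 fits. IFI35 stayed at -0.78 to -0.55, PARP9 at -0.83 to -0.55 and ZNFX1 at -0.62 to -0.40 on the log2 scale, each with an unadjusted p under 0.05 in 8 of 8 fits. RSAD2 stayed at -1.33 to -0.78 and kept an unadjusted p under 0.05 in 7 of 8 fits; without bird 8428 it was 0.0509. DTX3L ranged from -0.63 to -0.33 and was under 0.05 in 4 fits, and DHX58 ranged from -0.67 to -0.31 and was under 0.05 in 2. IFIH1 was never under 0.05 and depended most on 1 bird: without bird 8427 its value was -0.18. PARP9, DTX3L, IFIH1, DHX58 and ZNFX1 came closest to 0 without bird 8427, and for DTX3L, IFIH1 and DHX58 that moved the value by more than 1.5 times. CD274 ranged from 0.17, without bird 8428, to 0.44, without bird 8429. Without bird 8439 alone, whose libraries are in doubt, IFI35 was at -0.55, PARP9 at -0.56, RSAD2 at -0.78, ZNFX1 at -0.48, DTX3L at -0.45, DHX58 at -0.38, IFIH1 at -0.36 and CD274 at 0.20. The count of the 8 genes lower at an unadjusted p under 0.05 was then still 5. It was 4 without bird 8427 and 3 without bird 8428. No share of all genes at that p is given for these fits.

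**Figure D3:**
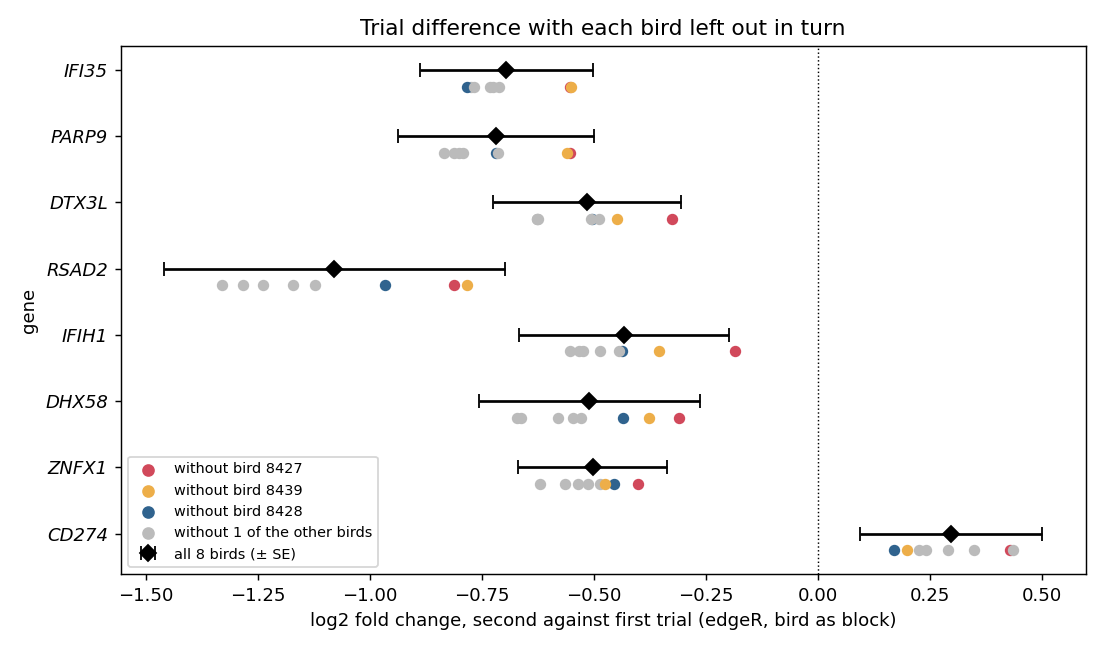
Log2 fold change of second against first trials for each gene, from the edgeR fit with bird as block; diamonds with bars are all 8 birds ± SE and the dots below are the fits with 1 bird left out. Leaving out bird 8427 or 8439 brings the values of the 7 lower genes closer to 0, and none crosses it.

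The 7 first-trial birds without a second library had lower medians than the 8 with one for each of the 8 genes, a difference that was not tested. Median RSAD2 was 78.3 against 282.4 CPM, median IFI35 102.8 against 139.9 CPM, and median PARP9 118.4 against 228.2 CPM. With no block and all 23 song libraries in the fit, 7 of the 8 genes were still negative, their median was -0.31 on the log2 scale, and 0 of the 8 had an unadjusted p under 0.05. With no block on the 16 paired libraries, 4 did. No share of all genes at that p is given for either fit.

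Blood cell markers were read in the same fit. Of the markers tested, 9 of 10 monocyte, 8 of 8 heterophil and 11 of 13 thrombocyte genes had positive log2 fold changes in second trials. Negative ones were found in 10 of 14 T cell, 8 of 12 B cell and 9 of 14 erythroid genes. Over all genes tested 45.1% were negative. Of the markers 0 passed the adjusted threshold. Summed monocyte markers were 23.2 to 181.4 CPM in paired first and 36.0 to 149.8 CPM in paired second trials. Summed heterophil markers were 11.9 to 57.4 and 19.1 to 67.7 CPM, summed T cell markers 69.0 to 135.0 and 49.4 to 195.2 CPM, and summed B cell markers 17.0 to 62.3 and 25.8 to 69.4 CPM. Summed thrombocyte markers were 559.3 to 945.0 and 706.1 to 1177 CPM, and summed erythroid markers 11970 to 22300 and 9859 to 22300 CPM. In second trials bird 8439 had the highest monocyte, heterophil, T cell, B cell and thrombocyte sums and the lowest erythroid sum. Its monocyte sum went from 27.7 to 149.8 CPM and its heterophil sum from 17.8 to 67.7 CPM. Monocyte sums were lower in second trials in 3 of 8 birds, heterophil sums in 3, T cell sums in 5 and each other sum in 4. The mean level of the white cell and thrombocyte markers was then added as a covariate beside the bird block. In that fit the median over the 8 genes was -0.47 and 5 of the 8 had an unadjusted p under 0.05. No share of all genes at that p is given for it. RSAD2 was at -0.90, PARP9 at -0.59, IFI35 at -0.58 and ZNFX1 at -0.49. DTX3L was at -0.45, DHX58 at -0.40, IFIH1 at -0.36 and CD274 at 0.25. The covariate is 1 mean over lists that went different ways, so it does not adjust for each cell type.

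Song was compared in the same fit of the 8 birds. Foreign minus local log2 fold changes were 0.38 ± 0.22 for PARP9, 0.32 ± 0.38 for RSAD2, 0.23 ± 0.21 for DTX3L, 0.13 ± 0.23 for IFIH1 and 0.11 ± 0.16 for ZNFX1. DHX58 was at 0.05 ± 0.25, IFI35 at 0.00 ± 0.19 and CD274 at -0.27 ± 0.20. No gene of the 8 had an unadjusted p under 0.05, where 3.37% of all genes were lower and 0.808% higher. None of all genes passed the adjusted threshold (percent called 0), and 1 of the 8 was negative against 50.9% of all genes. Without bird 8439, RSAD2 was at 0.01, PARP9 at 0.20, IFI35 at -0.15 and DHX58 at -0.09. DTX3L was then at 0.15, IFIH1 at 0.04, ZNFX1 at 0.07 and CD274 at -0.19. The signs of IFI35 and DHX58 turned in other fits too: IFI35 was also negative without bird 8422, 8426 or 8430, and DHX58 without bird 8428 or 8430. Without bird 8427, PARP9 was at 0.54, DTX3L at 0.42 and IFIH1 at 0.38, with unadjusted p of 0.0262, 0.0416 and 0.0315 by edgeR. The adjusted p was 0.83 for each. No share of all genes at an unadjusted p under 0.05 is given for that fit. With any other bird left out, none of the 8 genes was under 0.05 for song. Beside this, 10 of 10 monocyte, 8 of 8 heterophil and 13 of 14 T cell markers tested were lower after foreign song, 8, 3 and 3 of them at an unadjusted p under 0.05, where 3.37% of all genes were lower. Of B cell markers 10 of 12 were lower, 3 of them at that p, and of thrombocyte markers 10 of 13, 0 at that p. Erythroid markers went the other way, with 12 of 14 higher and 0 at that p. Each of these counts includes bird 8439. With the marker covariate 6 of the 8 interferon-induced genes were negative for song. The median was then -0.14 over the 8 genes and 0.01 over all genes tested. No share of all genes with a negative value is given for that fit.

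Between different birds in first trials, 8 after foreign and 7 after local song, 7 of the 8 genes were higher after foreign song. By edgeR 0 of the 8 had an unadjusted p under 0.05, where 1.91% of all genes were lower and 1.59% higher. One of the 8 was negative, against 51.1% of all genes, and no gene at all passed the adjusted threshold (percent called 0). PARP9 had means of 247.3 ± 134.6 CPM after foreign and 133.9 ± 102.2 CPM after local song (SD, n = 8 and 7), a log2 fold change of 0.88 ± 0.52. RSAD2 was at 346.5 ± 357.8 and 206.4 ± 171.2 CPM, a log2 fold change of 0.75 ± 0.73 that became 0.16 without bird 8439. DHX58 was at 0.53 ± 0.40, and at 0.34 without bird 8439. The ranges of the groups overlap for every gene.

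Against baseline birds, the first-trial values of the 7 genes other than CD274 lay between -0.41 and 0.02 on the log2 scale. Of these 7, 0 had an unadjusted p under 0.05 by edgeR or DESeq2. By edgeR 4.31% of all genes were lower and 1.88% higher at that p, and no such share is given for DESeq2. Baseline RSAD2 was at 33.1 to 767.3 CPM (median 236.1) and first-trial RSAD2 at 21.1 to 1222 CPM (median 266.0), with a log2 fold change of -0.15 ± 0.53, or -0.45 without bird 8439. The other 6 were at -0.41 ± 0.38 (DTX3L) to 0.02 ± 0.30 (IFI35). In all, 6 of the 8 were negative against 58.3% of all genes, and no gene passed the adjusted threshold (percent called 0).

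Second trials, compared with the same 10 baseline libraries, had 7 of the 8 genes negative against 57.1% of all genes. By edgeR PARP9 was the gene lower at an unadjusted p under 0.05, where 4.3% of all genes were, with means of 148.9 ± 69.4 and 240.0 ± 128.5 CPM (SD, n = 8 and 10) and a log2 fold change of -0.69 ± 0.32. Its unadjusted p was 0.0435, and 0.101 without bird 8439. By DESeq2 3 of the 8 genes were lower at an unadjusted p under 0.05, PARP9, DTX3L and RSAD2, with p of 0.0376, 0.0483 and 0.0332. The 4.3% is a share by edgeR, and no such share is given for DESeq2. RSAD2 was at -0.89 ± 0.44, DTX3L at -0.63 ± 0.31, IFIH1 at -0.47 ± 0.27 and IFI35 at -0.42 ± 0.24. DHX58 was at -0.36 ± 0.36 and ZNFX1 at -0.31 ± 0.24. Without bird 8439, RSAD2 was at -0.82, PARP9 at -0.58, DTX3L at -0.57 and IFIH1 at -0.46. DHX58 was then at -0.34, IFI35 at -0.28 and ZNFX1 at -0.25. None of the 8 passed the adjusted threshold, which 0.0168% of all genes did.

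CD274 was the gene that stood higher than baseline in both trials. In the 10 baseline birds its levels were 0.773 to 6.85 CPM with a median of 2.90. In first trials they were 0.615 to 18.1 CPM with a median of 7.42, and in second trials 2.59 to 16.1 CPM with a median of 9.71. The groups overlap: second-trial birds 8428, 8430 and 8427, at 2.59, 5.17 and 5.48 CPM, lie inside the baseline range. The log2 fold change was 0.98 ± 0.50 in first trials, with an unadjusted p of 0.0605 by edgeR and 0.0277 by DESeq2, whose adjusted p was 0.65. In second trials it was 1.42 ± 0.42, with an unadjusted p of 0.00316 and an adjusted p of 0.46, and it was 1.35 without bird 8439. At an unadjusted p under 0.05, 4.05% of all genes were higher in second trials than in baseline. The comparisons share the baseline libraries. T cell markers stood lower than baseline in both, negative in 11 of 14 genes in first and 10 of 14 in second trials. Over all genes 58.3% and 57.1% were negative. At an unadjusted p under 0.05 by edgeR, 8 and 7 of the 14 were lower, against 4.31% and 4.3% of all genes. Summed T cell markers were 61.5 to 260.0 CPM in baseline (median 108.0). They were 59.4 to 138.4 CPM in first trials (median 82.1) and 49.4 to 195.2 CPM in second trials (median 96.6). Baseline birds 8448 and 8450 had the highest sums, 260.0 and 202.6 CPM, and no fit left them out. Negative values in first trials were found in 6 of 11 monocyte, 6 of 8 heterophil, 9 of 12 B cell, 8 of 12 thrombocyte and 7 of 14 erythroid markers. In second trials they were found in 3 of 10, 6 of 8, 9 of 12, 4 of 12 and 8 of 14. The part of the T cell markers alone in the CD274 difference was not tested. A covariate of white cell and thrombocyte markers was fitted, and its CD274 values against baseline are not given here.

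Other genes of the interferon pathway were taken from lists of sensors, ligands and receptors with their signalling, negative regulators, other effectors, antigen presentation and CD274 partners. Of 104 genes listed, 64 have a row and 60 were tested within birds. In second against first trials 44 of the 60 were negative, 13 were lower and 3 higher at an unadjusted p under 0.05, 0 passed the adjusted threshold, and their median was -0.14. Over all genes tested 45.1% were negative, 1.94% lower and 3.78% higher at that p. The log2 fold changes were negative in 7 of 8 negative regulators, 3 of them at an unadjusted p under 0.05, and in 13 of 16 ligand, receptor and signalling genes, 2 of them at that p. The sensors were split, with 6 of 11 negative, 2 lower at an unadjusted p under 0.05 (RIGI and TRIM25) and 3 higher (TLR3, TLR7 and IKBKE); these 5 were named after their values were seen. Other effectors were negative in 12 of 18, antigen presentation genes in 3 of 4 and CD274 partners in 3 of 3.

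The 6 pathway genes of smallest p were all lower in second trials. SOCS1, a feedback inhibitor of JAK kinases, went from 11.2 ± 3.63 to 6.39 ± 2.73 CPM (SD, n = 8), a log2 fold change of -0.84 ± 0.19, and was lower in 6 of 8 birds. USP18, which removes ISG15 from proteins and damps the interferon receptor, was at -1.27 ± 0.36 and lower in 7 of 8 birds; its first-trial levels ran from 0.558 to 43.4 CPM. IRF1, a transcription factor of interferon-induced genes, went from 887.0 ± 261.9 to 551.5 ± 117.3 CPM, at -0.65 ± 0.17. The RNA-editing enzyme ADAR was at -0.48 ± 0.15 and B2M, the light chain of MHC class I, at -0.56 ± 0.19, each lower in 8 of 8 birds. The RNA helicase MOV10 was at -0.48 ± 0.15. Each of the 6 had an adjusted p of 0.63.

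The 8 genes did not vary as a single block. As a description over the 33 libraries, which share library preparation and include 2 libraries of 8 birds, PARP9 and DTX3L had a Pearson r of 0.97 of log2 CPM. The 15 pairs among IFI35, PARP9, DTX3L, RSAD2, IFIH1 and ZNFX1 had r of 0.51 to 0.97 with a median of 0.78. DHX58 stood apart from most of them, at 0.08 with PARP9, 0.09 with DTX3L and 0.12 with IFIH1, but 0.63 with RSAD2. In the second minus first differences of the 8 paired birds, which hold the large drops of birds 8427 and 8439, DHX58 did not stand apart: its r was 0.71 with PARP9, 0.60 with DTX3L, 0.76 with IFIH1 and 0.92 with RSAD2. Over the 33 libraries CD274 had r of -0.20 to 0.32 with the other 7.

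**Figure D4:**
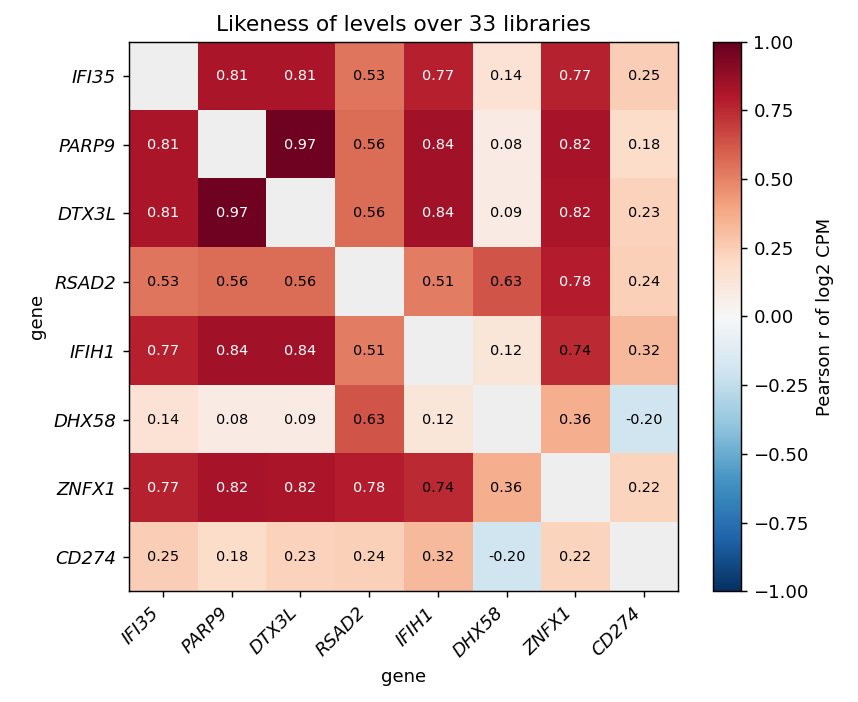
Pearson r of log2 CPM between each pair of the 8 genes over 33 libraries (colour scale -1 to 1, diagonal left blank). PARP9 and DTX3L are the closest pair at 0.97, and the rows of DHX58 and CD274 are the palest.

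Among 7218 other named genes, those whose levels were most like the mean standardised level of the 8 were EIF2AK2 (r = 0.94), which encodes the RNA-activated kinase PKR, and TRIM25 (r = 0.90), a ubiquitin ligase of RNA sensing. They were followed by DUSP15 (0.88), OCIAD2 (0.85), CMPK2 (0.82), IRF1 (0.82), OGFR (0.82) and SERPING1 (0.82). The median r over all 7218 was 0.04 and its 95th percentile 0.43. By Spearman's rho EIF2AK2 and DUSP15 took ranks 1 and 2, TRIM25 rank 5, and CMPK2 rank 44. CMPK2 and RSAD2 are neighbours in the RefSeq gene table. Of these, EIF2AK2, TRIM25, CMPK2 and IRF1, are also on the pathway lists.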

How the data were processed

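The authors deposited raw counts per gene, 1 file for each of the 33 libraries; the values are whole numbers with no normalization. Per the labels' protocols, blood RNA was poly(A)-enriched, made into libraries with a KAPA HyperPrep kit and read in pairs on a NovaSeq X Plus without haemoglobin depletion; 2 libraries have 2 lanes and the rest 3. Per the submitters' processing notes, fastp and STAR were used; no source used here gives versions, the counting program, strand setting or genome build. Of the 21141 rows, 20961 matched a symbol in RefSeq's table for assembly bMelMel2.pri, used for names and neighbours only, including all 8 genes followed.

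Counts were fitted on the whole table in R 4.3.3 with edgeR 4.0.16: filterByExpr (minimum count 10, minimum total 15), TMM scaling, robust quasi-likelihood test, Benjamini-Hochberg adjustment over all genes tested, threshold 0.05. Each standard error restates the test, as the size of the log2 fold change over the root of its F. CPM of single libraries use a scaling over all 33 libraries and a prior count of 1 on the log2 scale; group means ± SD with a fit use that fit's scaling. Scripts were tested on simulated data. The 5 comparisons were second against first trials and foreign against local song within 8 birds (bird as block, since both libraries of a pair come from 1 bird), first and second trials against baseline, and foreign against local song in first trials. The check of pairing gave correlations of 0.28 to 0.54 in 7 birds and -0.15 in bird 8439. No pair of libraries agreed within sampling noise. All libraries carry 1 batch label. Libraries within a group come from different birds. Genes, lists and tests were chosen with earlier results of these data known. Pathway genes named are the 6 of smallest p within birds; genes of like pattern are the 8 of highest Pearson r. Alternatives were DESeq2 1.42.0, RLE size factors, no filter, no block, no song term, a marker covariate, each bird left out, and libraries of 2 lanes left out.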

Additional observations from a re-analysis of the deposited data

Results flagged for a closer look

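Each gene was examined in the groups of 4 to 10 libraries, and in the 8 within-bird differences between trials, for a single value far from the rest, by the gap to the nearest value as a share of the whole range in log2 CPM (Dixon's critical values at 95%). Of 48 such examinations 6 were past the critical value, all in groups of libraries. Chance gives about 1 in 20 for independent examinations. These were not independent, as they share libraries and most of the genes vary together, so the count is not set against chance. Bird 8433, after foreign song in the first trial, was the low library for 3 genes: IFI35 at 24.5 CPM against 102.8 to 244.1 CPM in the other 7 (gap share 0.624), DTX3L at 43.1 against 208.9 to 589.2 CPM (0.603) and PARP9 at 34.1 against 147.1 to 496.6 CPM (0.546). Among the main comparisons, this bird, which has no second library, enters those of first trials only.

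In second trials, bird 8422 was the low library for IFI35 after foreign song, at 58.8 CPM against 85.2 to 90.8 CPM in the other 3 (gap share 0.855). Bird 8429 was the high library for ZNFX1 after local song, at 502.8 against 280.7 to 300.9 CPM (0.881). Bird 8428 was the low library for CD274 after local song, at 2.59 against 12.9 to 16.1 CPM (0.882).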

How the results depend on the processing

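For second against first trials, all 8 genes kept their sign under every alternative run. The count lower at an unadjusted p under 0.05 was 3 to 5 with 1 bird left out, against 5 with all. It was 4 with no replicate block on 16 libraries but 0 with no replicate block on 23. No share of all genes at that p is given for these alternatives. DESeq2 called 6 of all genes for trial and 4 for song within birds, 6 for first trials and 23 for second trials against baseline, and 8 for first-trial songs, against 0, 0, 0, 2 and 0 by edgeR; none was one of the 8 genes. For second trials against baseline, RLE size factors and leaving out bird 8439 each left 1 gene passing. Several song values changed sign: IFI35 was at -0.095 with no block on 16 libraries and -0.15 to 0.15 with 1 bird left out, and DHX58 -0.10 to 0.25. With the marker covariate beside the block IFI35 was at -0.39, RSAD2 -0.37, DHX58 -0.33, IFIH1 -0.14 and PARP9 -0.073, so the 2 largest song values, those of PARP9 and RSAD2, turned as well. In first trials against baseline IFI35 was at -0.046 without the libraries of 2 lanes. The cause was not tested. Depth limits CD274 most, with 44 to 2032 counts per library.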
